A study of Rattus norvegicus with 12 samples.

Results

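The probe sets described here are those annotated to 9 genes of programmed cell death: the caspases Casp6, Casp8 and Casp9, the Bcl2 family genes Bax, Bcl2, Bcl2l1 and Mcl1, and the death receptors Tnfrsf1a and Fas. All probe sets with these symbols in the array annotation were taken, but the genes were chosen with earlier results of these data known. The genes are 9 of the 14863 gene symbols in that annotation, with 17 of the 31042 probe sets that are not Affymetrix controls. Of the 17, 13 passed a filter that left out the 30% of probe sets with the lowest mean. One probe set, 1369122_at, is annotated to both LOC681314 and Bax, so its values are those of either or both.

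Apoptosis is run by caspases, proteases that lie inactive in the cell until they are cleaved. Death receptors such as Fas and the TNF receptor gather adaptor proteins that activate the initiator caspase Casp8, whereas damage inside the cell acts on mitochondria, where Bax opens the outer membrane and the released cytochrome c activates the initiator Casp9. Bcl2, Bcl2l1 (Bcl-x) and Mcl1 hold Bax and its relatives in check. In the rodent testis germ cell death by the Bax pathway is part of normal development, and mice without Bax keep too many germ cells. These proteins are also controlled after translation, so a transcript level is not a measure of cell death.

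Testes of rat embryos at embryonic day 16 were measured in 6 groups of 2 arrays. The F1 vinclozolin group came from females injected intraperitoneally on pregnancy days 8 to 14 with 100 mg/kg/day of vinclozolin, which is a fungicide with antiandrogenic breakdown products, and the F1 control group from females given the sesame oil and DMSO vehicle. The F2 and F3 groups of the vinclozolin and control lineages descended from such founders by mating, with no further dosing described, and each array held RNA pooled from about 10 testes. For F2 and F3 animals of the vinclozolin lineage the protocol text speaks of mating between control lines, and samples were grouped by their titles. The sources used here give neither the strain, nor the litters behind each pool, nor the days of hybridisation, so the p-values measure the spread between RNA pools. The number of arrays limits the precision throughout, and in whole tissue fewer cells of a type and less RNA per cell cannot be told apart.

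The 250 bases before the start site are shown for Mcl1, whose probe set 1370141_at had the members' lowest adjusted p in F1, and for Casp6 and Tnfrsf1a, which fell in F1 at their only probe set, because the drug's breakdown products act on a DNA-binding receptor whose motif can be looked for there. The sequences are RefSeq's on GRCr8, read 5′ to 3′ on the gene's strand, and capitals mark the GC box GGGCGG on either strand. Mcl1 lies at chr2:185907918-185908167 (plus strand), Casp6 at chr2:221140136-221140385 (plus strand) and Tnfrsf1a at chr4:159836869-159837118 (plus strand).
Mcl1: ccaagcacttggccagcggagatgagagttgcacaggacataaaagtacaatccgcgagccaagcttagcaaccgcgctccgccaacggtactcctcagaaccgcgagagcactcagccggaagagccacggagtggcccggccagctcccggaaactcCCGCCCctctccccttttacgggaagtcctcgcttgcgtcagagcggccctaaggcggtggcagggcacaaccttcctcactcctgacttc
Casp6: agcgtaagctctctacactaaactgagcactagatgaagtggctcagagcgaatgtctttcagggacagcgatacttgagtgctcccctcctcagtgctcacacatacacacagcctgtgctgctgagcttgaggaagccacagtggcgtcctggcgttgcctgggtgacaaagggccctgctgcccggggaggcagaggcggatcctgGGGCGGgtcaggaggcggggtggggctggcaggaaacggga
Tnfrsf1a: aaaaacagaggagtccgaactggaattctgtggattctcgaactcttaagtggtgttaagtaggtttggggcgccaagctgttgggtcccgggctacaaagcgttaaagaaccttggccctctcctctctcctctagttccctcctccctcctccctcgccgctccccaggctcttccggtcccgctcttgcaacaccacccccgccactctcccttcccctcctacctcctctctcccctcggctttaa
The androgen receptor half-site AGAACA, searched on both strands, had no match in these windows, nor in those of the 7 member genes with an entry together (10 windows, 4 of them alternative starts of Bcl2l1). A full site was not searched for. This half-site is present in 17.5% of 33360 windows of the same length in the RefSeq table. The GC box was present once in Mcl1 and once in Casp6, 3 times in Casp9 and once in Fas, and in 30.5% of all windows. A match here is a description of letters, not of binding, and the lack of one says only that these letters are not in the window.

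Markers of the testis were present on all 12 arrays. Genes of Sertoli cells (Amh, Dhh, Gata4, Wt1, Ptgds) and of fetal Leydig cells (Cyp11a1, Cyp17a1, Star, Insl3, Hsd17b3, Lhcgr) moved in both directions. In part this was a split between probe sets of 1 gene. In F1 the mean signal of Gata4 was 53.3 on vinclozolin against 125 on control arrays at 1 probe set. At the other it was 847 against 888. Wt1 gave 63.4 against 163 and 809 against 872. In F2 the probe sets of Star went opposite ways (1030 against 728, and 328 against 475). Genes with 1 probe set also differed: in F1 Amh was lower (2700 against 3080) and Ptgds higher (171 against 58.8). The Sertoli sum was 4454 and 5311.2 on the F1 vinclozolin arrays against 5317.6 and 5489.1 on the F1 control arrays, 5705.6 and 5766.5 against 5337.3 and 5579.6 in F2, and 4661.3 and 4839.3 against 5326.4 and 5576.3 in F3. Of 7 probe sets 2 were called lower and 1 higher in F1, 2 lower in F2 and 0 in F3. The Leydig sum was 9295.9 and 10395.5 against 9446.3 and 9517.7 in F1, 10255 and 11020.5 against 8996.6 and 9383.1 in F2, and 10071.6 and 10924.7 against 9044.9 and 9208.1 in F3. Of 8 probe sets 3, 2 and 0 were called lower and 1, 3 and 3 higher in F1, F2 and F3. Of 7 germ cell markers listed, Kit and Nanos3 could be analysed. Their summed signal was 45.4 and 59.7 on the F1 vinclozolin arrays against 111.5 and 116.5 on the F1 control arrays, 70.9 and 81.6 against 117 and 119.8 in F2, and 89.7 and 104.7 against 93.6 and 101.4 in F3. These markers disagreed: in F1 Kit gave 20.2 and 2.5 against 76.3 and 80.0, whereas Nanos3 gave 39.5 and 42.9 against 35.2 and 36.5. The summed signal of the erythroid markers, most of it from Hbb, was higher on the vinclozolin arrays in each generation. It was 7682.7 to 10141.8 in F1, 7567.3 to 7819.5 in F2 and 9333 to 10507.7 in F3. The matching control arrays gave 5818 to 5978.9, 6401.1 to 6663.2 and 6028.1 to 6240.2, and 5, 1 and 4 of 5 probe sets were called higher. In F2 the mean of Hbe2 was lower (26.6 against 32) and Hba-a3 overlapped, and in F3 Hbe2 overlapped. Secretory genes of the ventral prostate (Scgb1d2, Scgb1d4) summed to 24.2 to 29.4, 35.6 to 44.4 and 447.1 to 536.2 on vinclozolin arrays of F1, F2 and F3, against 4.4 to 14.5, 1.2 to 1.7 and 3.3 to 4.6 on control arrays. What these other cells contributed to the members' values was not tested. Among the macrophage markers, 0 of 6 tested probe sets passed the threshold in any generation (limma, adjusted p under 0.05), and Cd163 gave a mean signal of 2.17.

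A measure of RNA quality moved with lineage. The beta-actin ratio (5′ over 3′ probe set), which falls when long transcripts are broken or incompletely copied, was 0.192 and 0.149 on the F1 vinclozolin arrays, 0.246 and 0.219 in F2 and 0.395 and 0.36 in F3, against 0.423 to 0.471 on the 6 control arrays (exact permutation test, two-sided p = 0.00216, the smallest possible with 6 arrays against 6, and 0.00325 adjusted over 3 measures). The Gapdh ratio was 0.718 and 0.651 on the F1 vinclozolin arrays, 0.8 and 0.721 in F2 and 1.02 and 0.97 in F3. On the control arrays it was 0.959 to 1.02, so it overlapped in F3 (exact permutation test over all arrays, two-sided p = 0.0411, the same after adjustment). The beta-actin ratio did not overlap between lineages in any generation, so lineage and this measure cannot be told apart, and its part in the results below was not tested. With the log2 ratio as a covariate, 0 of the 21730 tested probe sets passed the threshold in F1 and 0 in F2, members included. The F1 differences under it were −0.42 for Casp6, −1.32 for 1370485_a_at of Bcl2l1 and −1.07 for 1388083_a_at of Casp9. They were −0.23 for Tnfrsf1a and 0.06 for 1370141_at of Mcl1 (limma adjusted p = 0.74 to 0.986 for all of these). Since the ratio did not overlap between lineages, this fit cannot separate them, and no conclusion is drawn from these sizes. Every value below carries that limit.

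Values are linear signals scaled by the authors, and differences are log2 differences of (signal + 16), vinclozolin minus control, with the standard error of a limma fit to all 12 arrays. That fit shares 1 spread among the 6 groups, although replicates lay further apart in the vinclozolin groups than in the control groups. A probe set is called at a Benjamini-Hochberg adjusted p under 0.05 over all 21730 tested. Adding 16 shrinks the differences of dim probe sets, so the ratio of mean signals is given for some. The filter used the mean over all 12 arrays, with a limit near a signal of 14.8. A probe set below that limit on vinclozolin arrays could therefore pass through its control arrays, and its differences and ratios rest on values near the floor.

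**Figure D1:**
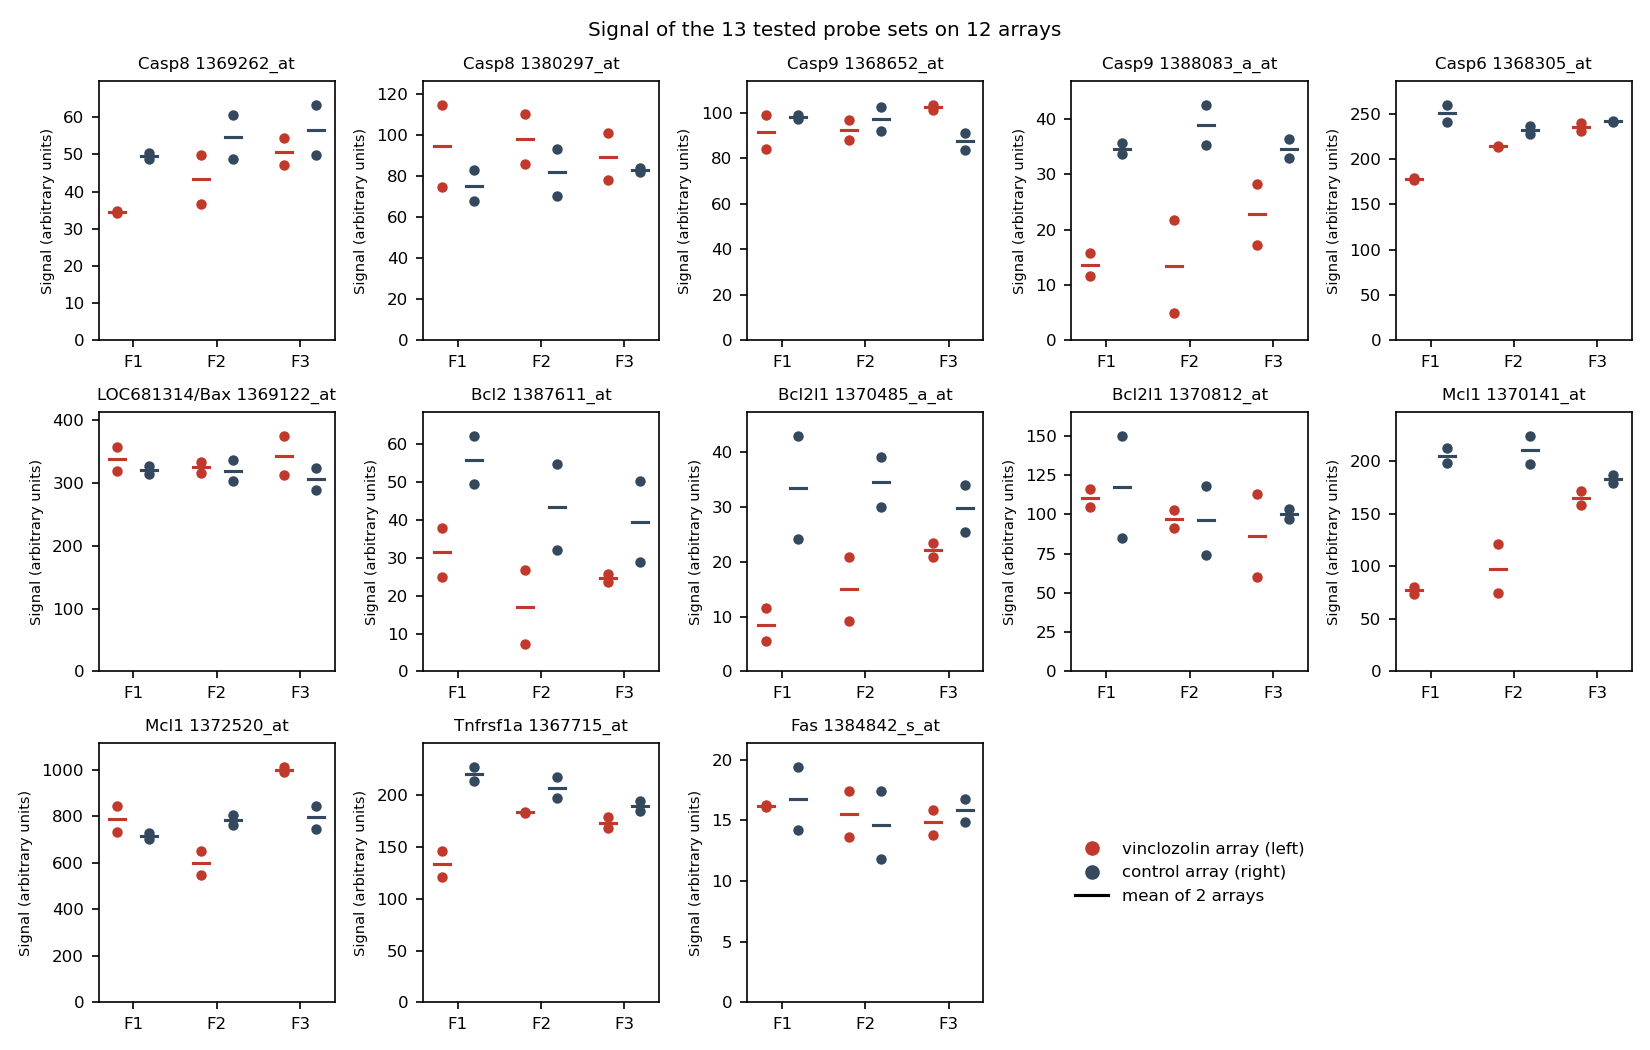
Signal in arbitrary units of the 13 tested probe sets, each panel starting at 0, with generations along the axis, vinclozolin arrays (red) left of control arrays (dark) and bars at the mean of 2 arrays. Casp6 was lowest on the F1 vinclozolin arrays (177.4 and 179.6), whereas the probe set of LOC681314 and Bax stayed between 289.2 and 374.9 on all 12.

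Of the death receptors, Tnfrsf1a, the main receptor for TNF, fell in F1. Its probe set 1367715_at gave 145.6 and 120.9 on the F1 vinclozolin arrays against 226.7 and 212.9 on the F1 control arrays, a log2 difference of −0.66 ± 0.11 (SE, n = 2 arrays per group; limma adjusted p = 0.000723). In F2 it gave 183.6 and 182.6 against 217.2 and 196.7 (−0.16 ± 0.11, limma adjusted p = 0.374), and in F3 168.4 and 178.1 against 194.1 and 184.6 (−0.12 ± 0.11, limma adjusted p = 0.637). The lineages did not overlap in any generation, with the vinclozolin arrays lower each time, but only the F1 difference was called, and the dependence on generation was not (limma F test, adjusted p = 0.113, and 0.0113 without F1 vinclozolin replicate 1). Averaged over the generations Tnfrsf1a fell by 0.31 ± 0.07 (limma adjusted p = 0.00177), and without F1 the average was −0.14 (adjusted p = 0.248).

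Fas, the receptor of Fas ligand, gave low signals. Its probe sets 1369900_at (0.4 to 7.7 on vinclozolin arrays, 0.7 to 2.8 on control arrays) and 1397221_s_at (3.6 to 14.1 and 1.7 to 10.8) were left out by the filter. The tested one, 1384842_s_at, stood just above the filter at a mean signal of 15.6, with 13.6 to 17.4 on vinclozolin and 11.8 to 19.4 on control arrays. Its differences lay between −0.05 and 0.05, and the mean over generations was −0.01 with a 95% interval of −0.25 to 0.23. The suffix _s_at marks probe sets that may match transcripts of more than 1 gene, and no detection calls were used here.

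Casp8, the initiator caspase of the death receptors, had probe sets that went different ways. At 1369262_at the signals were 34.2 and 34.8 on the F1 vinclozolin arrays against 50.5 and 48.9 on the F1 control arrays, 49.9 and 36.7 against 48.8 and 60.5 in F2, and 47.1 and 54.4 against 63.3 and 49.8 in F3. The F1 groups did not overlap and the others did, and none of the differences was called (−0.38 ± 0.17, −0.26 ± 0.17 and −0.12 ± 0.17, limma adjusted p = 0.116, 0.336 and 0.772). At 1380297_at they were 74.7 and 114.8 against 67.8 and 83.3 in F1, 110.4 and 85.8 against 70.6 and 93.5 in F2, and 78.2 and 101.2 against 84.2 and 82.1 in F3. These overlapped in every generation, with differences of 0.26 ± 0.19, 0.22 ± 0.19 and 0.08 ± 0.19 that were not called. The mean over generations was −0.25 ± 0.10 at 1369262_at (limma adjusted p = 0.0571, and 0.0282 without F2 vinclozolin replicate 1) and 0.19 ± 0.11 at 1380297_at (limma adjusted p = 0.209, and 0.0388 without F1 vinclozolin replicate 1).

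Casp9, the initiator caspase of the mitochondrial pathway, was low at 1 of its probe sets on vinclozolin arrays. At 1388083_a_at, whose suffix marks several transcripts of 1 gene, the signals were 15.7 and 11.6 on the F1 vinclozolin arrays against 33.7 and 35.6 on the F1 control arrays, 4.9 and 21.8 against 42.5 and 35.3 in F2, and 28.2 and 17.3 against 36.3 and 33.0 in F3. The 11.6 of F1 and the 4.9 of F2 lay below the filter's limit of about 14.8. All 6 vinclozolin arrays lay below all 6 control arrays. The differences were −0.78 ± 0.24 in F1 (limma adjusted p = 0.0325), −0.96 ± 0.24 in F2 (limma adjusted p = 0.0166) and −0.40 ± 0.24 in F3 (limma adjusted p = 0.421), and the mean over generations was −0.71 ± 0.14 (limma adjusted p = 0.0013), a ratio of mean signals of 0.46. At 1368652_at Casp9 gave 84.2 to 103.4 on vinclozolin arrays and 83.5 to 102.5 on control arrays, with a mean difference of 0.02 and a 95% interval of −0.14 to 0.17. A further probe set, 1370737_at, was left out at 0.8 to 17.8 on vinclozolin and 1.3 to 10.8 on control arrays. The F1 call of 1388083_a_at was lost without F1 control replicate 1 or 2, without F1 vinclozolin replicate 2 and in 4 other settings (adjusted p up to 0.147), and the F2 call without F2 control replicate 1 or 2 or F2 vinclozolin replicate 1 (up to 0.138).

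Casp6, an executioner caspase that cleaves lamins, fell in F1. Its only probe set, 1368305_at, gave 179.6 and 177.4 on the F1 vinclozolin arrays against 241.4 and 259.6 on the F1 control arrays (−0.45 ± 0.10, limma adjusted p = 0.00354). It gave 214.9 and 213.5 against 236.8 and 227.9 in F2 (−0.11 ± 0.10, limma adjusted p = 0.497) and 239.9 and 230.8 against 241.2 and 242.0 in F3 (−0.04 ± 0.10, limma adjusted p = 0.89). Replicates lay close together, and the vinclozolin arrays were below the control arrays each time, by little in F3. The F1 call was lost without F1 control replicate 2 or with the 4 arrays of F1 fitted alone (adjusted p up to 0.0607). Over the mean of the generations Casp6 fell by 0.20 ± 0.06 (limma adjusted p = 0.0124), a call lost without F1 (0.503), without F1 control replicate 2 (0.0506) and after median centring (0.159).

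The pore former of the set showed no called difference. The probe set annotated to LOC681314 and Bax (1369122_at) gave 318.5 and 357.2 on the F1 vinclozolin arrays against 314.4 and 326.6 on the F1 control arrays, 316.6 and 333.6 against 336.0 and 302.6 in F2, and 312.1 and 374.9 against 324.4 and 289.2 in F3. The lineages overlapped in each generation. The mean difference was 0.08 ± 0.06 (limma adjusted p = 0.352), with a 95% interval of −0.05 to 0.22, and after median centring it was 0.18 (adjusted p = 0.0418).

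The 2 largest falls of members in F1, on the log2(signal + 16) scale and by ratio of mean signals, were at 1 of the probe sets each of the survival genes Mcl1 and Bcl2l1. For Bcl2l1 the F1 vinclozolin signals lay below the filter's limit, so the size of that fall rests on values near the floor. Mcl1, a short-lived protein that restrains Bak and Bax, was represented by probe sets 1370141_at and 1372520_at. At 1370141_at the signals were 80.6 and 73.6 on the F1 vinclozolin arrays against 212.2 and 197.9 on the F1 control arrays, 120.7 and 74.4 against 197.0 and 223.7 in F2, and 171.6 and 157.8 against 186.8 and 178.9 in F3. All 6 vinclozolin arrays lay below all 6 control arrays, and the F1 and F2 vinclozolin arrays lay below those of F3. Mcl1 fell there by 1.25 ± 0.16 in F1 (limma adjusted p = 7.07e-05) and by 1.02 ± 0.16 in F2 (limma adjusted p = 0.000711), which are ratios of mean signals of 0.376 and 0.464. In F3 the difference was −0.14 ± 0.16 (limma adjusted p = 0.702), and the 3 differences were not equal (limma F test, adjusted p = 0.0261).

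At 1372520_at Mcl1 behaved differently. The signals were 734.1 and 845.3 on the F1 vinclozolin arrays against 730.7 and 703.9 on the F1 control arrays, 651.6 and 549.7 against 765.1 and 805.2 in F2, and 989.6 and 1012.7 against 847.0 and 747.8 in F3. The vinclozolin arrays were therefore higher than the control arrays in F1 and F3 and lower in F2, without overlap. The F2 fall of 0.38 ± 0.10 was called (limma adjusted p = 0.0211) and the differences of 0.13 ± 0.10 in F1 and 0.33 ± 0.10 in F3 were not (limma adjusted p = 0.384 and 0.0966). The dependence on generation was called (limma F test, adjusted p = 0.0322). The F2 call was lost without F2 control replicate 1 or 2, without F2 vinclozolin replicate 2, after median centring and without the trend in the moderation (adjusted p up to 0.216). The F3 difference was called without F1 vinclozolin replicate 1 or 2 (adjusted p = 0.0234 and 0.0235), with array weights (0.0131) and with the arrays of F3 alone (0.0188).

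**Figure D2:**
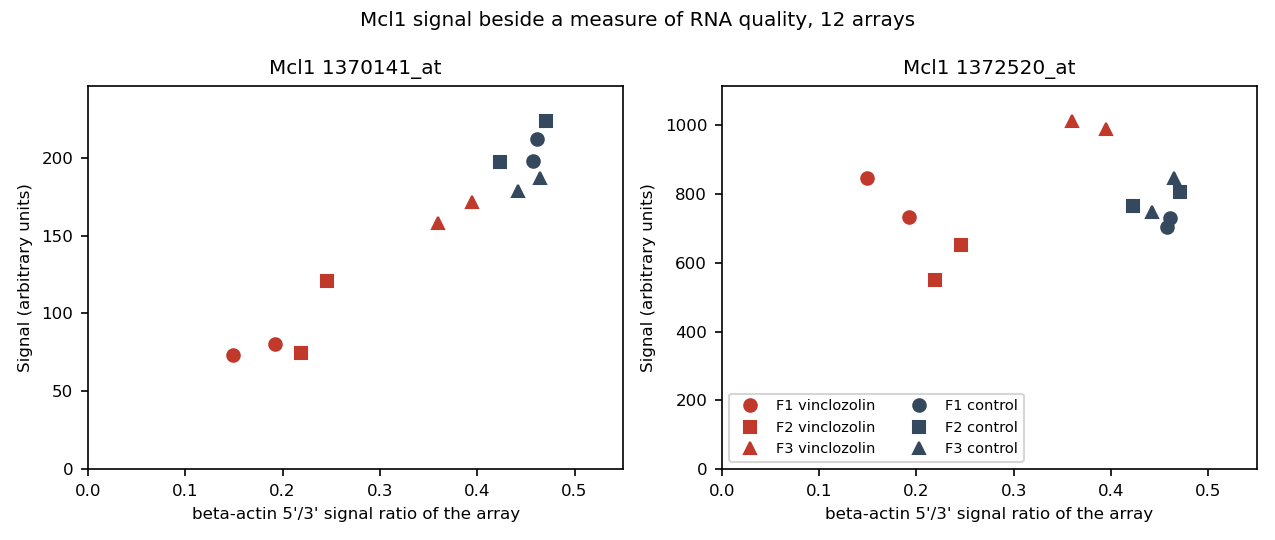
Signal of the Mcl1 probe sets (vertical axis, arbitrary units, from 0) against the beta-actin 5′ to 3′ ratio of the same array (horizontal axis, no unit), 1 point per array, with vinclozolin arrays in red and control arrays dark. At 1370141_at the arrays with the lowest ratios (0.149 to 0.246) had signals of 73.6 to 120.7, whereas at 1372520_at the same 4 arrays ranged from 549.7 to 845.3.

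Set beside the beta-actin ratio, the arrays took much the same order at 1370141_at: the 4 with ratios of 0.149 to 0.246 had signals of 73.6 to 120.7, the F3 vinclozolin arrays with 0.36 and 0.395 had 157.8 and 171.6, and the control arrays with 0.423 to 0.471 had 178.9 to 223.7. With the ratio as a covariate the F1 difference of this probe set was 0.06 and the F2 difference −0.17 (limma adjusted p = 0.986 and 0.902). The genes with the most similar profile over the 12 log2 values, by Pearson's r, were Siah1 (1387266_at, r = 0.992), Ddx17 (1397405_at, r = 0.991) and Stag2 (1382332_at, r = 0.989). These 12 points share lineage, generation and the RNA quality differences above, so the likeness is a description.

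Bcl2l1 encodes Bcl-xL and shorter forms made by splicing. At 1370485_a_at it gave 5.6 and 11.5 on the F1 vinclozolin arrays against 24.1 and 42.9 on the F1 control arrays, 20.8 and 9.2 against 39.0 and 29.9 in F2, and 23.4 and 20.9 against 34.0 and 25.5 in F3. The F1 vinclozolin signals and the 9.2 of F2 lay below the filter's limit of about 14.8, so this probe set passed the filter through its other arrays. All 6 vinclozolin arrays lay below all 6 control arrays. The F1 fall of 1.00 ± 0.24 was called (limma adjusted p = 0.00751), and the F2 and F3 differences of −0.72 ± 0.24 and −0.26 ± 0.24 were not (limma adjusted p = 0.0571 and 0.628). The F1 call was lost without F1 control replicate 2 (adjusted p = 0.116), and the F2 difference was called without F1 vinclozolin replicate 1 or 2 or F2 vinclozolin replicate 1 (adjusted p = 0.0295 to 0.0388). The mean over generations was −0.66 ± 0.14 (limma adjusted p = 0.00199, and 0.0569 without F1).

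At 1370812_at Bcl2l1 ranged from 59.9 to 116.0 on vinclozolin arrays and from 74.4 to 149.9 on control arrays, overlapping in every generation, with a mean difference of −0.08 and a 95% interval of −0.38 to 0.23. The filter left out 1369180_at, at 3.9 to 19.4 on vinclozolin and 9.9 to 16.0 on control arrays, a mean of 12.4 just under the limit of 14.8. Erythroid precursors are known to depend on Bcl-xL, and the summed signal of their markers was higher on vinclozolin arrays (above), while no Bcl2l1 probe set was called higher. What the erythroid cells contributed was not tested.

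Bcl2, the founding survival gene of the family, had 1 probe set, 1387611_at. It gave 38.0 and 25.0 on the F1 vinclozolin arrays against 49.5 and 62.2 on the F1 control arrays, 26.7 and 7.2 against 54.7 and 32.1 in F2, and 23.6 and 25.8 against 29.0 and 50.2 in F3. The vinclozolin arrays were lower in each generation without overlap, but the replicates lay far apart, and the 7.2 of F2 lay below the filter's limit of about 14.8. The difference of −0.89 ± 0.28 in F2 was called (limma adjusted p = 0.0445), those of −0.61 ± 0.28 in F1 and −0.42 ± 0.28 in F3 were not (limma adjusted p = 0.133 and 0.456), and the mean over generations was −0.64 ± 0.16 (limma adjusted p = 0.00654). The F2 call was lost in 13 of 22 alternative settings besides the covariate. Among them were leaving out either array of F1 control, F2 control or F3 vinclozolin, or F2 vinclozolin replicate 2 (adjusted p up to 0.408). The mean was not called without F2 (adjusted p = 0.0723).

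**Figure D3:**
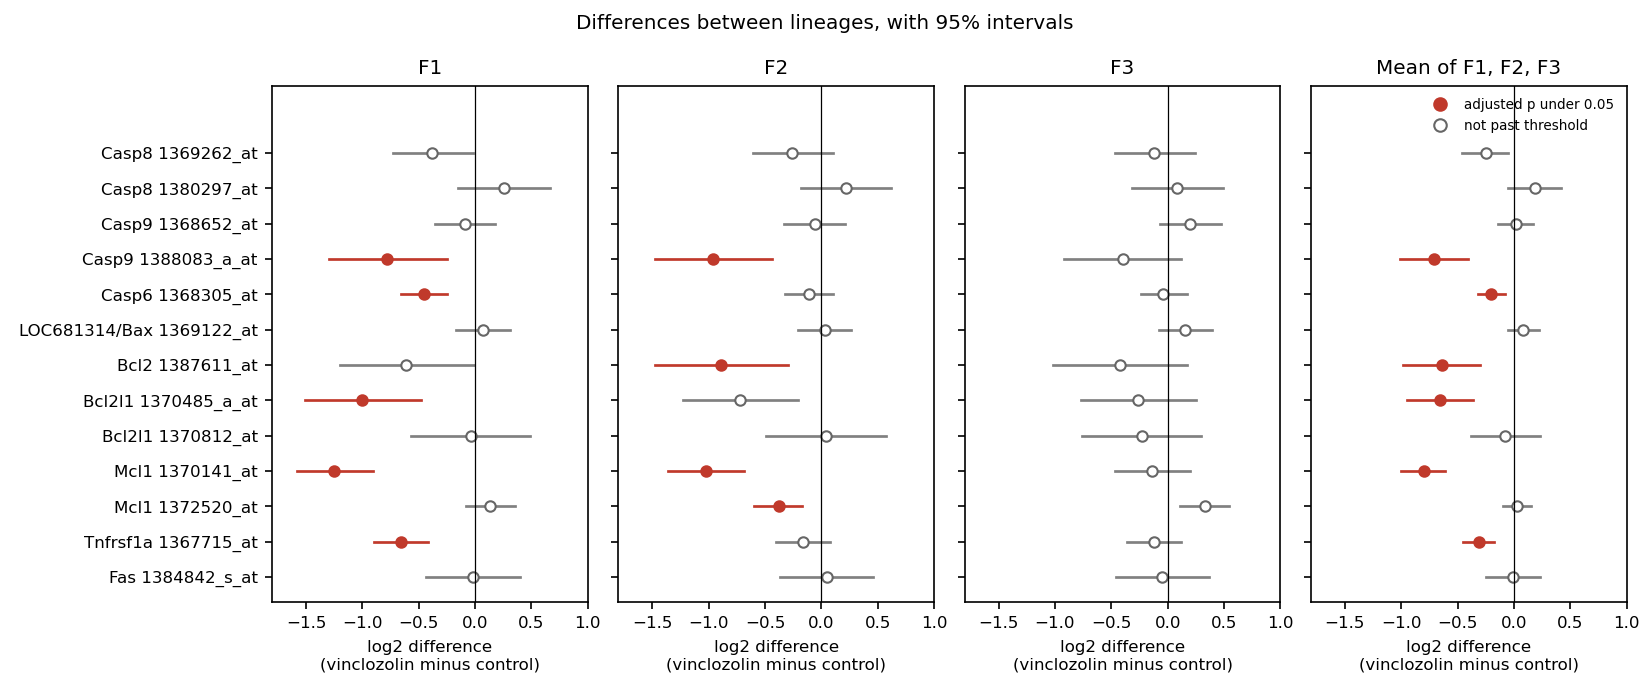
Log2 difference, vinclozolin minus control, of each tested probe set (rows) in F1, F2, F3 and their mean (panels), with 95% intervals from the limma fit; filled red points passed an adjusted p of 0.05. Called values all lie left of 0, in F1 (5 probe sets), F2 (4) and the mean (6), with none in F3.

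Counted together, 5 of the 13 tested probe sets were called lower in F1 and 0 higher, where 23.1% of all tested probe sets were called, 13.7% lower and 9.41% higher. That balance depended on scaling: after median centring 2199 of all probe sets were lower and 3678 higher in F1, 1494 and 2594 in F2, and 2795 and 5524 over the mean, against 2981 and 2045, 2097 and 1021, and 4173 and 3072 as deposited. The members called after median centring were 4 lower in F1, 2 lower in F2, and 5 lower and 1 higher over the mean. The 5 called lower in F1 as deposited were Tnfrsf1a, Casp6, 1388083_a_at of Casp9, 1370485_a_at of Bcl2l1 and 1370141_at of Mcl1. The call of Casp9 among them was lost after median centring (limma adjusted p = 0.0546). The counts that follow are for values as deposited. In F2, 4 were called lower and 0 higher, against 14.3% of all called (9.65% lower and 4.7% higher). These were both probe sets of Mcl1, Bcl2, and 1388083_a_at of Casp9. In F3, 0 of 13 were called by limma, against 3.11% of all (2.06% lower and 1.05% higher), and 1 had an unadjusted p under 0.05. For the mean over generations 6 were called lower and 0 higher, against 33.3% of all called (19.2% lower and 14.1% higher). These were Tnfrsf1a, Casp6, Bcl2 and 1 probe set each of Casp9, Bcl2l1 and Mcl1. The difference depended on generation at 2 of 13, the probe sets of Mcl1, against 2.6% of all, and both calls were lost without any of several single arrays (adjusted p up to 0.172).

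The members' median difference was −0.38 in F1, −0.16 in F2 and −0.12 in F3, where the median of all tested probe sets was −0.01 each time. With 13 probe sets of 9 genes, several of them of 1 gene, these are descriptions and not tests of the group. Vinclozolin arrays lay wholly below control arrays at 7 members in F1, 7 in F2 and 6 in F3, where this held for 30.6%, 30.3% and 29.7% of all tested probe sets. Counting both directions, the groups did not overlap at 8, 7 and 8 members, against 58.4%, 58% and 55.4% of all. Over all 12 arrays the vinclozolin lineage lay wholly below the control lineage at 4 members, against 7.73% of all, or 13.2% in both directions. Among the 3 control groups 0 of 13 members differed (limma F test, adjusted p under 0.05), as did 0% of all tested, and 0 members had an unadjusted p under 0.05.

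The split between probe sets of 1 gene was itself tested, as the log2 difference between them on each array, a test chosen after the values were seen. For Mcl1 the difference of 1370141_at minus that of 1372520_at was −1.38 ± 0.18 in F1 (limma adjusted p = 0.000174 over 6158 pairs of 1 gene) and −0.64 ± 0.18 in F2 (limma adjusted p = 0.0178). For Bcl2l1 the difference of 1370485_a_at against 1370812_at was −0.96 ± 0.24 in F1 and −0.76 ± 0.24 in F2 (limma adjusted p = 0.00824 and 0.0324). For Casp8 that of 1369262_at against 1380297_at was −0.64 ± 0.19 in F1 (limma adjusted p = 0.0215) and was not called in F2 (−0.48 ± 0.19, limma adjusted p = 0.0797). For Casp9 that of 1368652_at against 1388083_a_at was 0.90 ± 0.26 in F2 (limma adjusted p = 0.0227) and not called in F1 (0.69 ± 0.26, limma adjusted p = 0.0556). Without an F1 vinclozolin array the Casp8 pair was called in F2 (adjusted p = 0.0374), and without an F2 vinclozolin array the Casp9 pair was called in F1 (0.00767 and 0.00771).

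In F3 0 of these 4 pairs was called (limma adjusted p = 0.185 to 0.98), and 2 had an unadjusted p under 0.05. Such splits were common on these arrays: of all pairs of 1 gene, 37.3% were called in F1, 29.8% in F2, 2.29% in F3 and 48.8% over the mean, where all 4 of these were called. Dependence on generation was called for 1.1% of pairs and for 0 of the 4 (limma F test, 2 at an unadjusted p under 0.05), and the Mcl1 pair passed without F1 vinclozolin replicate 1 (adjusted p = 0.0474). The size of the difference therefore depended on which probe set was read. Its sign differed between the probe sets of Casp8 in each generation, of Mcl1 in F1 and F3, of Bcl2l1 in F2 and of Casp9 in F3, and was the same in the other cases. Where the probe sets lie on the transcripts was not analysed here. The Mcl1 pair in F2, the Bcl2l1 pair in F1 and F2, the Casp8 pair in F1 and the Casp9 pair in F2 each lost their call without at least 1 array of their own generation (adjusted p up to 0.2).

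**Figure D4:**
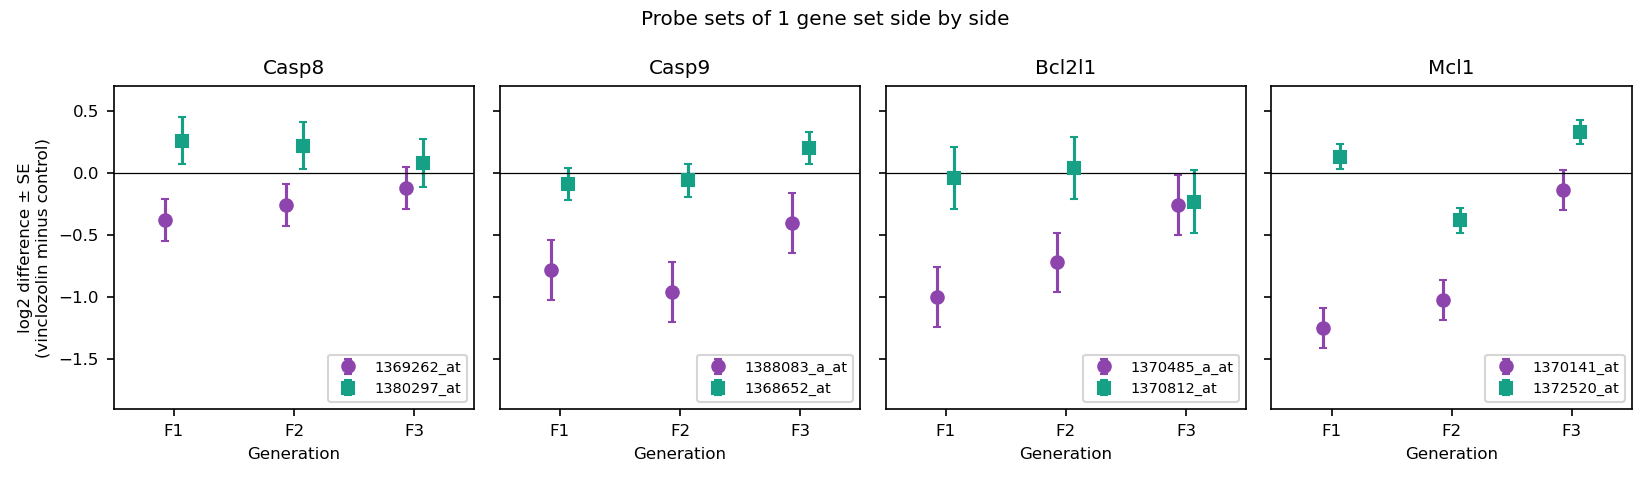
Log2 difference ± SE, vinclozolin minus control, by generation (horizontal axis) for the tested probe sets of Casp8, Casp9, Bcl2l1 and Mcl1 (panels), with a circle and a square for the 2 probe sets of a gene. The circle lies below the square in every panel and generation, with a difference of −1.38 for Mcl1 in F1 and of −0.02 for Bcl2l1 in F3.

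Around the members, 50 tested probe sets of 37 further genes of the pathway were read from role lists (52 genes listed, 44 with a probe set analysed here). In F1 13 were called lower and 1 higher, in F2 6 lower and 0 higher, and over the mean 15 lower and 1 higher. After median centring the split was 11 lower and 5 higher in F1, 4 and 2 in F2, and 11 and 7 over the mean. In F3 limma called 0 of 50, with 7 at an unadjusted p under 0.05. Counting both directions, 14 of 50 were called in F1, 6 in F2 and 16 over the mean. Over all tested probe sets 23.1% were called in F1 (13.7% lower, 9.41% higher) and 14.3% in F2 (9.65% lower, 4.7% higher). The shares were 3.11% in F3 and 33.3% over the mean (19.2% lower, 14.1% higher). The pathway totals lay near the total shares. The role lists below hold 1 to 8 tested probe sets each, so their counts are descriptions. The median difference of the 50 was −0.12, −0.06 and −0.03 in F1, F2 and F3.

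The inhibitors of apoptosis, which bind caspases or act in division, had 2 of 5 probe sets called lower in F1, 3 in F2 and none higher. Xiap, which blocks Casp9 and executioner caspases, gave 11.2 and 4.8 at 1369248_a_at on the F1 vinclozolin arrays against 60.5 and 59.5 on the F1 control arrays, 12.5 and 8.6 against 66.8 and 70.6 in F2, and 31.8 and 16.0 against 45.6 and 35.3 in F3. It fell by 1.68 ± 0.21 in F1 and by the same in F2 (limma adjusted p = 7.16e-05 and 0.000189), and gave −0.52 ± 0.21 in F3 (limma adjusted p = 0.2). The F1 and F2 vinclozolin signals lay below the filter's limit of about 14.8, so the size of these falls rests on values near the floor. Its probe set 1379555_at fell by 0.64 ± 0.19 in F2 (limma adjusted p = 0.0375), with −0.32 in F1 not called. Birc5 (survivin), which also serves the mitotic spindle, fell by 0.42 ± 0.11 in F2 (limma adjusted p = 0.0151) and gave −0.40 ± 0.11 in F3 (limma adjusted p = 0.0535). The F3 value was called in 7 alternative settings, among them array weights (adjusted p = 0.00723) and leaving out either F1 or either F2 vinclozolin array (0.0156 to 0.0472).

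Of the caspases outside the member list, 1 of 5 probe sets was lower in F1 and the same number in F2. That was 1367891_a_at of Casp2, an initiator linked to oocyte death in mice, which gave 43.2 and 30.5 on the F1 vinclozolin arrays against 126.4 and 121.6 on the F1 control arrays, 57.2 and 56.0 against 137.6 and 129.0 in F2, and 98.8 and 86.9 against 140.1 and 107.6 in F3. It fell by 1.42 ± 0.15 in F1 and by 1.04 ± 0.15 in F2 (limma adjusted p = 2.01e-05 and 0.000473), with −0.35 ± 0.15 in F3 (limma adjusted p = 0.224). The other Casp2 probe set, 1367890_at, gave 831.6 and 799.4 on the F1 vinclozolin arrays against 913.4 and 966.8 on the F1 control arrays, and its differences of −0.20, −0.15 and 0.05 were not called (limma adjusted p = 0.0925 to 0.82). Here and below, the other probe sets of genes named by rule are given after their values were seen. Casp4, an inflammatory caspase, gave 0.29, 0.26 and 0.19 and was not called.

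Of the survival relatives, Bcl2l2 (Bcl-w), which mice need for spermatogenesis, gave 73.7 and 72.8 on the F1 vinclozolin arrays against 137.8 and 169.6 on the F1 control arrays, 81.1 and 97.6 against 154.9 and 146.4 in F2, and 129.8 and 130.5 against 137.8 and 136.2 in F3. It fell by 0.92 ± 0.13 and 0.67 ± 0.13 in F1 and F2 (limma adjusted p = 0.000147 and 0.00306), and the dependence on generation was called (limma F test, adjusted p = 0.04). The BH3-only genes, whose products set off the mitochondrial pathway, had 2 of 8 lower in F1 and 1 in F2, and both of those in F1 were of Bid, at −0.90 ± 0.19 for 1369683_at and −0.51 ± 0.14 for 1377759_at (limma adjusted p = 0.00359 and 0.0165). The F2 call was Bmf at −1.04 ± 0.29 in F2 (limma adjusted p = 0.0274), where the vinclozolin signals of 8.1 and 2.4 lay below the filter's limit of about 14.8. Of the pore formers, Bok fell by 0.54 ± 0.12 in F1 at 1369084_a_at (limma adjusted p = 0.00354), gave −0.04 at 1373733_at (limma adjusted p = 0.82), and Bak1 gave −0.06 (not called).

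Among receptor adaptors 1 of 8 was lower in F1. Ripk1, the kinase that joins the TNF receptor to survival or death signals, gave at 1391543_at 19.1 and 9.9 on the F1 vinclozolin arrays against 52.2 and 47.4 on the F1 control arrays (−1.12 ± 0.18, limma adjusted p = 0.000419), and 35.4 to 42.6 against 35.1 to 43.8 over F2 and F3. Its dependence on generation was called (limma F test, adjusted p = 0.0279). The other Ripk1 probe set, 1371529_at, gave 90.4 and 101.4 against 107.8 and 103.0 in F1 and 111.8 and 118.3 against 89.7 and 93.5 in F3, with no difference called (limma adjusted p = 0.272 to 0.813). Fadd, the adaptor of Fas, fell over the mean by 0.26 ± 0.08 (limma adjusted p = 0.0211) and was not called in any single generation. Of the other receptors and ligands 1 of 4 was lower in F1, Tnfrsf21 (death receptor 6) at −0.77 ± 0.18 for 1393584_at (limma adjusted p = 0.0066), with −0.04 ± 0.23 for 1391573_at (limma adjusted p = 0.921), and Tnfrsf25 gave 0.19, 0.11 and −0.15, not called.

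In the apoptosome and release list Apaf1, the scaffold on which Casp9 is activated, fell by 0.67 ± 0.20 in F1 at 1369198_at (limma adjusted p = 0.0221) and gave −0.04 ± 0.12 at 1369197_at (limma adjusted p = 0.847). Htra2, a mitochondrial protease, was the 1 probe set called higher there (0.27 ± 0.09, limma adjusted p = 0.0492). Among caspase substrates Parp1, a DNA repair enzyme, fell by 0.38 ± 0.10 in F1 (limma adjusted p = 0.0141), while Dffa, the inhibitor of the apoptotic nuclease, gave −0.83 ± 0.31 in F1 at 1369082_at (limma adjusted p = 0.0628) and fell there over the mean by 0.59 ± 0.18 (limma adjusted p = 0.0177). The vinclozolin signals of 1369082_at were 18.8 and 2.1 in F1 and 19.5 and 2.1 in F2, with the values of 2.1 below the filter's limit of about 14.8. At 1389195_at Dffa gave 235.4 and 213.0 on the F1 vinclozolin arrays against 188.9 and 179.2 on the F1 control arrays, without overlap and not called (0.26 ± 0.11, limma adjusted p = 0.101). In the p53 axis Mdm2, the ubiquitin ligase for p53, fell in F1 at 1383485_at and 1384427_at, by 1.17 ± 0.21 and 0.81 ± 0.17 (limma adjusted p = 0.0011 and 0.00286), and these were not called in F2 or F3. A further Mdm2 probe set, 1383288_at, gave 554.5 and 512.5 against 507.9 and 484.1 in F1, 595.1 and 549.1 against 501.7 and 497.0 in F2, and 534.1 and 590.4 against 484.3 and 487.8 in F3. It was called higher over the mean (0.16 ± 0.05, limma adjusted p = 0.0242) and not in any single generation. Probe sets of genes known to promote death and of genes known to restrain it were both among those that fell in F1. Of the 12 calls in F1 at the named pathway probe sets, 7 were kept whichever array was left out (Casp2, Xiap, Bid, Ripk1, Bcl2l2, and 1383485_at and 1384427_at of Mdm2). Those of Bok, Apaf1, Parp1, Tnfrsf21 and Htra2 were lost without at least 1 array (adjusted p up to 0.233). In F2 those of Casp2, Bcl2l2 and Xiap at 1369248_a_at were kept, and those of Birc5, Bmf and Xiap at 1379555_at were lost without at least 1 (up to 0.245). Over the mean, Bok, Apaf1, Bmf, Dffa and Fadd were lost without at least 1 (up to 0.112).

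**Figure D5:**
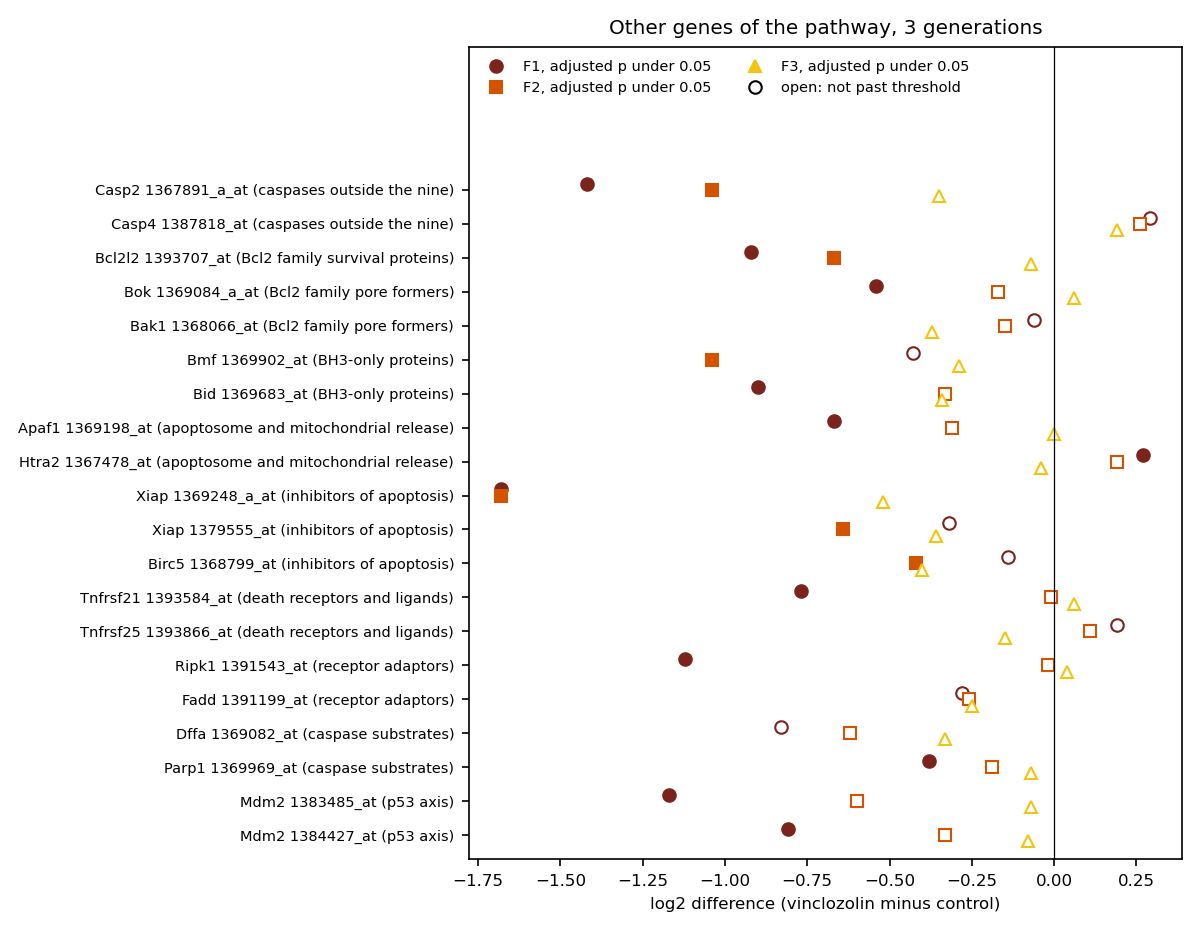
Log2 difference, vinclozolin minus control, of 20 probe sets of other pathway genes named by rule (rows, with their role list) in F1 (circles), F2 (squares) and F3 (triangles); filled symbols passed an adjusted p of 0.05. Filled symbols lie left of 0 except Htra2 in F1 at 0.27, and Xiap at 1369248_a_at is lowest, at −1.68 in F1 and F2.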

How the data were processed

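Total RNA of pooled embryonic testes was labelled with biotin and hybridised to Affymetrix rat arrays, per the labels' protocols. The deposited values are linear signal intensities per probe set, from 0 to 9534.9. Their 2% trimmed mean was 125.03 or 125.04 on every array, so the authors had scaled them before deposit. The software was not given in the sources used here.

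Of 31099 probe sets, 57 controls were set aside and the 9312 lowest by mean log2(signal + 16), 30% of the rest, were left out (signals below about 14.8). The array medians spanned 0.157 on that scale, under the 0.5 set for quantile normalization, so values were used as deposited. limma 3.58.1 (R 4.3.3) fitted 6 group means to 12 arrays (lmFit, eBayes with trend, 6 residual and 8.97 prior degrees of freedom). The fit was tested on simulated data before use. With 2 arrays against 2, a single generation rests on the spread pooled over the 6 groups. Quality ratios were compared by exact permutation tests (scipy 1.17.1).

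Symbols came from GEO's array annotation: 20826 probe sets had 1, 436 several and 9780 none. Sequences are from RefSeq (GRCr8). The members, the gene lists and their alternatives were chosen with earlier results of these data known. Pathway genes were named by rule: up to 12 probe sets by the smallest p of the mean among those called there or in at least 2 generations, and the 2 smallest of each list. The test of probe set pairs and the pathway counts under alternatives were chosen after the values were seen. Alternatives were other normalizations, pseudocounts (1, 64), filters, moderation, weights, a replicate block, a quality covariate, 1 probe set per gene and leaving out arrays or generations.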

Additional observations from a re-analysis of the deposited data

Results flagged for a closer look

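Differences between the lineages depended on generation, by the limma F test over all tested probe sets, at 5 of the probe sets described. For Mcl1 the adjusted p was 0.0261 at 1370141_at, where vinclozolin minus control was −1.25, −1.02 and −0.14 in F1, F2 and F3, and 0.0322 at 1372520_at, where it was 0.13, −0.38 and 0.33. For Ripk1 at 1391543_at it was 0.0279, with differences of −1.12, −0.02 and 0.04, for Casp2 at 1367891_a_at 0.0338, with −1.42, −1.04 and −0.35, and for Bcl2l2 0.04, with −0.92, −0.67 and −0.07. The other tested probe sets of Casp2 (−0.20, −0.15 and 0.05) and Ripk1 (−0.12, 0.06 and 0.28) did not pass this test. Of all tested probe sets 2.6% passed this test. The beta-actin ratio of the vinclozolin arrays also differed by generation (0.149 to 0.192, 0.219 to 0.246 and 0.36 to 0.395), and its part was not tested. Each of the 5 calls was lost without some single arrays. At 1370141_at these were both F1 control, F2 control replicate 2 and all 4 F3 arrays (adjusted p up to 0.172), and at 1372520_at all 6 control arrays, F2 vinclozolin replicate 2 and both F3 vinclozolin arrays (up to 0.17). For Casp2, Bcl2l2 and Ripk1 they were all 6 control and both F3 vinclozolin arrays, with F1 vinclozolin replicate 2 for Ripk1 (up to 0.237).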

How the results depend on the processing

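The count of called members was 5 in F1, 4 in F2, 0 in F3 and 6 for the mean, and 2 depended on generation. It moved most with the beta-actin ratio as a covariate, to 0 in F1, F2, the mean and the dependence on generation; over all probe sets that fit called 0, 0, 247 and 0 in F1, F2, F3 and the mean, against 5026, 3118, 676 and 7245. Restricting the test to the brightest probe set of each gene gave 2 members in F1, 1 in F2, 3 for the mean and 0 for the dependence on generation, and leaving out the lowest 50% gave 3 in F1 and 2 in F2; fewer members are tested in both. Median centring, and moderation without a trend, each gave 2 in F2, and gave 1 and 0 for the dependence on generation, as did no filter (0). Array weights, or the 4 arrays of F3 alone, gave 1 in F3, which was Mcl1 at 1372520_at (0.33). The mean without F1 gave 3. Leaving out single arrays gave 2 to 5 members in F1, 1 to 5 in F2, 0 to 1 in F3, 5 to 7 for the mean and 0 to 3 for the dependence on generation; the lowest in F1 was without F1 control replicate 2, and in F2 without either F2 control array. Over all settings without the covariate the calls over all probe sets ranged from 2188 to 7183 in F1, 1074 to 4885 in F2, 65 to 2711 in F3, 3470 to 8854 for the mean and 64 to 3506 for the dependence on generation, and those of the 50 pathway probe sets from 5 to 21, 3 to 9, 0 to 2, 7 to 24 and 0 to 11. The calls of Mcl1 at 1370141_at and of Tnfrsf1a in F1, of Mcl1 at 1370141_at in F2, and of Mcl1 and Casp9 (1388083_a_at) for the mean were kept in all of those settings in which they were tested. The cause of the other changes was not tested.

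With the covariate, called falls changed sign in F1 for Mcl1 at 1370141_at (0.06), Xiap (0.3), Mdm2 (0.7), Bid (0.27), Parp1 (0.36), Apaf1 (0.84), Tnfrsf21 (1.05) and the pairs of Casp8 (0.85) and Mcl1 (0.00), in F2 for Bmf (0.29) and the Mcl1 pair (0.26), and in the mean for Mcl1 (0.00), Bcl2 (0.02), Mdm2 (0.53 and 0.05), Bid (0.19), Parp1 (0.24), Ripk1 (0.08), Bmf (0.66), Dffa (1.76), Apaf1 (0.6) and the pairs of Casp8 (0.47) and Mcl1 (0.02); none of these was called (adjusted p 0.344 or more). Some other lost calls kept about their size or grew, among them Casp6 −0.42, Bcl2l1 −1.32, Casp9 −1.07 and Bcl2l2 −1.26 in F1. In F2 they included Casp9 −1.16 and Bcl2l2 −0.89 (limma adjusted p 0.359 or more in both generations). Others kept their sign and shrank, among them Tnfrsf1a (−0.23), Casp2 (−0.28), Ripk1 (−0.39), Mdm2 at 1384427_at (−0.07) and Bok (−0.27) in F1. In F2 those that shrank included Mcl1 at 1370141_at (−0.17), Bcl2 (−0.19), Xiap at 1369248_a_at (−0.38) and Casp2 (−0.3). Lineage and the ratio did not overlap, so these sizes are descriptions. Xiap at 1379555_at was called in F3 (−0.83, adjusted p = 0.0226). Ripk1 also changed sign in the mean without F1 (0.01).

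The replicate block left the counts of called members at 5, 4, 0, 6 and 2 and changed the call of the Casp8 pair in F2 (adjusted p = 0.0483), Dffa in F1 (0.0426), Htra2 in F1 (0.0582) and Xiap for the dependence on generation (0.0386). Replicate differences of the vinclozolin and control lineages correlated at −0.02, −0.04 and 0.03 in F1, F2 and F3. No pairing by replicate number was seen, but these correlations cannot show that samples were unpaired. The lineage difference of the beta-actin ratio was −0.193 (−0.22 to −0.171 without single arrays), that of the array median −0.0952 on the log2 scale (−0.101 to −0.0886) and that of the Gapdh ratio −0.173 (−0.215 to −0.14), the last past the threshold in 2 of 12 such fits. Median centring moved the median difference of all probe sets from −0.01 to 0.102 in F1 and 0.106 in F2, so values under it are relative to that shift; the members called lower kept their sign, and the probe set of LOC681314 and Bax was called higher over the mean.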
